A study of Homo sapiens with 4 samples.

Results

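A set of 10 transcription factor and cofactor genes of blood formation was examined for the histone mark H2AK119ub in H1 cells, an established line of human embryonic stem cells. The genes were the 3 RUNX genes (RUNX1, RUNX2 and RUNX3) and TAL1, LYL1, LMO1, LMO2, GFI1, GFI1B and IKZF1, which are 10 of 19821 protein-coding genes with positions on chromosomes 1 to 22 and X. They were chosen by name, with earlier results of these data known. For each gene, the annotated span with 20 kb on either side, called here its window, was searched for peaks in 2 peak lists. The wild-type list came from untreated H1 cells, and the knockdown list came from H1 cells given a short hairpin RNA that targets YTHDF1, a cytoplasmic reader of methylated adenosine in messenger RNA. Both were grown in mTeSR1 medium. Each group had 1 H2AK119ub library and 1 input library, and the input libraries were not analysed here. With 1 library a group no difference could be set against a replicate spread, so no test was run and values are given side by side. The lists hold no measure of YTHDF1 RNA, so the knockdown itself was not checked. No sample came from cells given a control hairpin RNA, so receiving a hairpin and losing YTHDF1 cannot be told apart. All positions are in hg38.

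H2AK119ub is histone H2A carrying a single ubiquitin on a lysine of its tail. It is laid down by Polycomb repressive complex 1 and is found, among other places, over genes of lineages that a cell has not entered. RUNX proteins bind DNA through the Runt domain together with their partner CBFB. RUNX1 is needed for the emergence of blood stem cells, RUNX2 for bone and RUNX3 for T cells and sensory neurons. TAL1 and LYL1 are related basic helix-loop-helix factors that form a DNA-bound complex with E proteins, LDB1 and the LIM-only proteins LMO1 or LMO2. GFI1 and GFI1B are zinc finger repressors, and IKZF1 encodes Ikaros, a zinc finger factor of lymphocytes. Vertebrate RUNX genes are transcribed from a distal and a proximal promoter far apart. The peak lists hold no expression values, so whether any of these genes was transcribed in these cells was not measured.

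The sequences around the RUNX and IKZF1 starts are shown because RUNX2, RUNX3 and IKZF1 had starts on both sides of peak edges, with RUNX1 given beside its relatives. A RefSeq table of promoters (GRCh38.p14, the same coordinates as hg38) lists 17 starts for 9 of the 10 genes and none for LMO2. Each entry runs from 250 bases before to 50 bases after the start and is written 5′ to 3′ on the strand of the gene, with every CG dinucleotide in capitals. The first 3 entries are the proximal RUNX starts, all of which lay inside peaks in both lists.
RUNX1 proximal start (chr21:34888650-34888949, minus strand): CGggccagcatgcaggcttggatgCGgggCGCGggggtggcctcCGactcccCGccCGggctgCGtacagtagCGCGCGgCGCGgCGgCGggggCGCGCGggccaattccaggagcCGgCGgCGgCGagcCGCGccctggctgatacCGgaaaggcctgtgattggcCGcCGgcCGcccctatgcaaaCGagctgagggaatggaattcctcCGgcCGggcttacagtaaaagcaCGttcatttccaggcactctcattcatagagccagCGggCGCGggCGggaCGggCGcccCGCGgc
RUNX2 proximal start (chr6:45422025-45422324, plus strand): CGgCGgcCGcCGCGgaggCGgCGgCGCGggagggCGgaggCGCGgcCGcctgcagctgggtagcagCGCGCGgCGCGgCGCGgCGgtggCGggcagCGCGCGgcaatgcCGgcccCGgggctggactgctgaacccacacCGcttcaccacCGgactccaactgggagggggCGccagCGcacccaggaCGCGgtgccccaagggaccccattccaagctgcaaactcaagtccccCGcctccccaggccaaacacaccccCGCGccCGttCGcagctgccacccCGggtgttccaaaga
RUNX3 proximal start (chr1:24930227-24930526, minus strand): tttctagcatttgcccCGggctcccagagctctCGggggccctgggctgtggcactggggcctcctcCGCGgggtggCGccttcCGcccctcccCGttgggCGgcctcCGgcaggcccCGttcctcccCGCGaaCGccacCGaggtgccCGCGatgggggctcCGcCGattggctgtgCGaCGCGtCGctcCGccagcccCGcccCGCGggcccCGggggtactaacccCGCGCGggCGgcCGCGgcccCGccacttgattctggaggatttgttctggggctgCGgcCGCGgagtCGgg
The distal RUNX2 and RUNX3 starts lay outside peaks in both lists.
RUNX2 distal start (chr6:45328080-45328379, plus strand): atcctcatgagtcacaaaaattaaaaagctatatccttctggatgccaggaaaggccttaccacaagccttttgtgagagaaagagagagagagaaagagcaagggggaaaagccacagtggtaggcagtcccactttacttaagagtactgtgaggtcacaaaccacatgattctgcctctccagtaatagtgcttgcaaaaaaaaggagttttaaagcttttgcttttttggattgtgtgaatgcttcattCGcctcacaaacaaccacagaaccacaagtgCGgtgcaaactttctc
RUNX3 distal start (chr1:24964961-24965260, minus strand): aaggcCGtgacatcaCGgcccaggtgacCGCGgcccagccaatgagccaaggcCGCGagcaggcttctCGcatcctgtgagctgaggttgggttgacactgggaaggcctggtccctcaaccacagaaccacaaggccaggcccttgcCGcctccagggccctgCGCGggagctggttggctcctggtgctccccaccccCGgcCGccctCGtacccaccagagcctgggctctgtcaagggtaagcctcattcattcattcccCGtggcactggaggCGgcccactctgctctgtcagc
The 3 starts of IKZF1 are shown because the first lay in a peak in both lists, the second in the knockdown list alone and the third in neither.
IKZF1 first start (chr7:50304466-50304765, plus strand): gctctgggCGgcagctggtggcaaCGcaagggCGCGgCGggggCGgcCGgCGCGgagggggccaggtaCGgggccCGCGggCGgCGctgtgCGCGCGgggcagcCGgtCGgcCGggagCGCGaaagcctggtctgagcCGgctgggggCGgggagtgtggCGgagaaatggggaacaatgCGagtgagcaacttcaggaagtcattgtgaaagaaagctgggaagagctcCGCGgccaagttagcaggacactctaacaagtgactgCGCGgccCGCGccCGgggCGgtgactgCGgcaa
IKZF1 second start (chr7:50308450-50308749, plus strand): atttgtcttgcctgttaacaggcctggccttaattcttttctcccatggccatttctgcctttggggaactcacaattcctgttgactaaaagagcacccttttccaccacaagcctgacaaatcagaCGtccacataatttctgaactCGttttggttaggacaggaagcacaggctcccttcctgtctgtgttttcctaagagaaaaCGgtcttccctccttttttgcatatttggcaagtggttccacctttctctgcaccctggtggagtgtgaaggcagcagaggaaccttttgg
IKZF1 last start (chr7:50318798-50319097, plus strand): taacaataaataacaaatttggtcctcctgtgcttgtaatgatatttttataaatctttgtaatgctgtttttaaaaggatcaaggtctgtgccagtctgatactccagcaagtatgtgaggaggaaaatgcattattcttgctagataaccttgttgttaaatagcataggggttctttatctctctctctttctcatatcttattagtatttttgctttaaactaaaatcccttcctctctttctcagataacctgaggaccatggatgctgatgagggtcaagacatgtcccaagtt

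All 3 RUNX genes carried the mark over the proximal start, and no peak of either list lay over a distal start or, for RUNX1, over the far annotated end of the gene. The proximal RUNX1 start (position 34888699 on chromosome 21) lay in a peak of 11.4 kb in wild-type cells and 10.6 kb in knockdown cells. The proximal RUNX2 start (45422275 on chromosome 6) lay in peaks of 6.4 and 7.8 kb, and that of RUNX3 (24930276 on chromosome 1) in peaks of 15.4 and 20 kb. All 3 proximal peaks were thus found again in the knockdown list, narrower at RUNX1, where a separate knockdown peak of 2.8 kb lay next to it, and wider at RUNX2 and RUNX3. The nearest peak to the distal RUNX2 start (45328330) was 47.7 kb away in wild-type cells and 47.5 kb away in knockdown cells. At RUNX3 the distal start (24965010) was 1.41 kb from the nearest peak in wild-type cells and 0.81 kb in knockdown cells, so it lay between peaks rather than far from them. For RUNX1 the far annotated end of the gene (35049302), which is the 5′ end on the minus strand, was 20.3 and 19.3 kb from the nearest peak.

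The letters of these promoters differed too. The 300 bases held 40 CG dinucleotides at the proximal RUNX1 start, 39 at that of RUNX2 and 38 at that of RUNX3. The distal entries held 2 in RUNX2 and 15 in RUNX3. The number did not separate covered from uncovered starts in the members: the LMO1 start, inside peaks in both lists, also held 15, and both GFI1B starts, inside peaks as well, held fewer. Among all 34961 listed starts on these chromosomes, the share inside a peak rose with the number of CG dinucleotides. It was 11% in wild-type cells and 9.85% in knockdown cells for starts with 0 to 4, 43.0% and 40.5% with 5 to 14, 69.1% and 71.1% with 15 to 28, and 87.3% and 88.1% with 29 to 77. Starts that belong to the same gene are not independent, and base composition is a property that sequencing libraries can also follow, whose part was not tested.

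RUNX2, RUNX3 and IKZF1 each had starts inside and starts outside peaks. Of 4036 protein-coding genes with at least 2 listed starts, 727 (18%) had a start inside peaks of both lists and another outside peaks of both. These 3 were the only members among them. In 698 of the 727 genes (96.0%) the starts inside peaks held more CG dinucleotides on average than those outside, and this was so in all 3 members. The most 5′ start was the one outside peaks in 185 of the 727 (25.4%), RUNX2 and RUNX3 included, while in IKZF1 the most 5′ start was inside. In each list taken by itself, 3 of the 6 members with several starts had some but not all of them in peaks, beside 24.4% of all such genes in wild-type cells and 25.9% in knockdown cells.

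**Figure D1:**
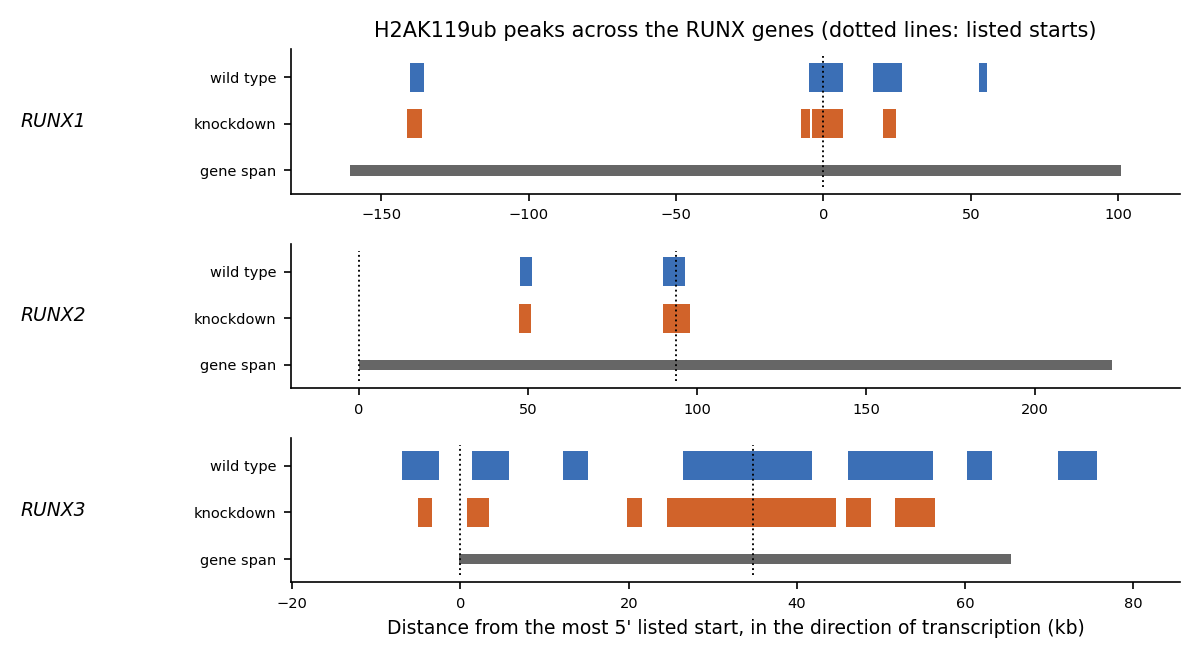
H2AK119ub peaks (wild type blue, knockdown orange) across RUNX1, RUNX2 and RUNX3, each in its window, against the distance in kb from the most 5′ start in the promoter table, with the gene span in grey and listed starts as dotted lines. For RUNX1 only the proximal start is listed, at 0. In all 3 genes the proximal start lies inside a peak in both lists, 11.4 and 10.6 kb wide at RUNX1, 6.4 and 7.8 kb at RUNX2, and 15.4 and 20 kb at RUNX3.

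The distal promoters shared a stretch of sequence with each other. The longest run of letters common to the distal RUNX2 and RUNX3 entries was 18 bases, shown here because it holds the RUNX recognition letters in tandem.
Run shared by the distal RUNX2 and RUNX3 starts: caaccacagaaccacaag
It began 14 bases after the RUNX2 start and at position -133 from that of RUNX3, and no other listed promoter held it on either strand. The motif TGTGGT, searched on both strands, occurred 2 times in this run, 4 times in the whole distal RUNX2 entry and 2 times in that of RUNX3, and not in any of the 3 proximal entries. Of all listed promoters 13.1% held it at least 1 time and 1.3% at least 2 times. Among the members' 17 promoters 5 held it (29.4%): the distal RUNX2 and RUNX3 entries, the second TAL1 start, the second GFI1 start and the second IKZF1 start. CAGATG, an E-box bound by TAL1 with E proteins, stood in 2 of the 17 (both GFI1B starts, 11.8%, beside 14.7% of all). AGATAA, the GATA letters, stood in 3 (the first TAL1 start, LYL1 and the third IKZF1 start, 17.6%, beside 10.3% of all). These motifs do not overlap one another, and a match describes the letters only.

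Away from the proximal starts the RUNX genes differed from each other. RUNX1 (chromosome 21, 34787801 to 35049302) had 28.6 kb in peaks in wild-type cells and 23 kb in knockdown cells, all of it inside the gene, which is 9.49% and 7.63% of its window. Besides the proximal peak, a peak of 9.8 kb downstream of it (34862201 to 34872000) met a peak of 4.4 kb in knockdown cells (34864201 to 34868600). A wild-type peak of 2.6 kb farther downstream (34833201 to 34835800) touched no knockdown peak. A peak between the distal end and the proximal start measured 4.8 kb in wild-type cells and 5.2 kb in knockdown cells. By the authors' score 45.4% of wild-type peaks ranked above the first, and 99.9% of knockdown peaks above the second. RUNX2 (chromosome 6, 45328330 to 45551082) had the smallest covered share of the 10 windows, with 10 kb (3.81%) in wild-type cells and 11.4 kb (4.34%) in knockdown cells. Its only other peak, 3.6 kb wide in both lists, lay over 2 listed starts of SUPT3H, a neighbouring gene on the opposite strand whose span reaches into RUNX2. The proximal peak of RUNX2 also covers the start of a noncoding gene, LOC124901324, that lies 0.059 kb from the RUNX2 start, and that of RUNX3 covers the start of RUNX3-AS1 at 0.181 kb, so the mark there cannot be assigned to either gene.

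RUNX3 (chromosome 1, 24899511 to 24965138) had more separate peaks, 7 in wild-type cells and 6 in knockdown cells. They covered 45 kb (42.6% of the window) in wild-type cells and 33.8 kb (32.0%) in knockdown cells. Most of the difference of -11.2 kb lay outside the gene, where 9.0 kb in wild-type cells stood against 1.6 kb. Over the gene span alone the difference was -3.8 kb, and in the upper 50% of peaks by score it was also -3.8 kb. The proximal peak reached 8.32 kb upstream and 7.08 kb downstream of the start in wild-type cells and 10.1 and 9.88 kb in knockdown cells. A further 3 wild-type peaks, of 4.6, 3.0 and 3.0 kb, touched no knockdown peak, and a knockdown peak of 1.8 kb touched no wild-type peak. A wild-type peak of 10.2 kb downstream of the proximal start met 2 knockdown peaks of 4.8 and 3.0 kb. Of the wild-type bases in peaks 58.7% were also in knockdown peaks, against 98.0% at RUNX2 and 67.1% at RUNX1.

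TAL1 and LYL1, the helix-loop-helix factors, lay inside or beside wide peaks with scores at the top of both lists. The score is the authors' value per peak, of unknown unit, with a ceiling of 1000. TAL1 (chromosome 1, 47216290 to 47232335) had both listed starts in a peak of 19.8 kb in wild-type cells (47218401 to 47238200) and 29.0 kb in knockdown cells (47208201 to 47237200). The knockdown peak ran through the whole gene and into the place of a separate wild-type peak of 10.8 kb (47204001 to 47214800). The gene span was covered to 86.8% in wild-type cells and 100% in knockdown cells. The window held 32.3 kb in peaks (57.7%) in wild-type cells and 36.5 kb (65.1%) in knockdown cells, the largest increase in kb among the 10 genes. The gain did not hold for the upper 50% of peaks by score in each list, where the difference was -0.6 kb. Another peak in the window, of 9.8 and 11.4 kb, reached to the start of the neighbouring gene PDZK1IP1.

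LYL1 (chromosome 19, 13099033 to 13102858) is a short gene lying entirely inside a domain that it shares with NFIX, a nuclear factor I gene. The wild-type peak measured 131.6 kb (12974201 to 13105800) and the knockdown peak 62 kb (13044401 to 13106400). Only 0.0183% of wild-type peaks and 0.0436% of knockdown peaks were wider in their own list. The difference lay at the far, NFIX side, where the edge was 70.2 kb nearer to LYL1 in knockdown cells, while the edge beyond the LYL1 start differed by 0.6 kb. The stretch beyond was mostly still in peaks: 2 further knockdown peaks of 73.0 kb in sum lay there and past its far edge, and the 3 knockdown peaks together covered 98.6% of the wild-type peak. At LYL1 itself the coverage was 100% in both lists. Its window had 40.2 kb in peaks (91.8%) in wild-type cells and 35.6 kb (81.3%) in knockdown cells. The loss of 4.6 kb was on the upstream side, in a second peak of 14.4 kb against 8.6 kb over the starts of TRMT1 and NACC1. It depended on the window, since the difference was 0 kb over the gene alone, 0.6 kb with 5 kb on either side and -19.4 kb with 50 kb on either side.

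The LIM-only genes encode bridging proteins with no DNA binding of their own, and over all peaks LMO1 was lower and LMO2 higher in knockdown cells. LMO1 (chromosome 11, 8224309 to 8268787) had the largest difference of the 10 genes. It had 44.2 kb in peaks in wild-type cells, 52.3% of its window, and 22 kb in knockdown cells, 26.0%. The wild-type value is 2.01 times that of the knockdown. All of the knockdown bases lay inside wild-type peaks. The peak over the start (8268787) was present in both lists, with 15.4 kb in wild-type cells (8257201 to 8272600) and 12.8 kb in knockdown cells (8258801 to 8271600). An upstream peak that reaches the edge of the window measured 8.6 and 6.8 kb. Most of the difference was in the gene body and past its 3′ end. There the wild-type list had 5 further peaks, of 4.6, 3.8, 5.6, 5.0 and 2.0 kb, and the knockdown list had 1 of 2.4 kb. The 4 peaks missing from the knockdown had wild-type scores of 6, 11.6, 14.5 and 20.7, the first 3 of them below the median score of that list, 16.5. A region with signal slightly too weak to be called in knockdown cells would give the same pattern, and without read counts the cases cannot be told apart.

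LMO2 (chromosome 11, 33858576 to 33892076), which carries the LIM function in blood stem cells, had 9.8 kb in peaks in wild-type cells and 12.2 kb in knockdown cells, or 13.3% and 16.6% of its window. All of it was inside the gene, and neither annotated end lay in a peak. A single wild-type peak (33866201 to 33876000) met a knockdown peak of 6.4 kb (33866001 to 33872400), and a second knockdown peak of 5.8 kb (33877001 to 33882800) touched no wild-type peak. With the lower-scored 50% of each list left out, the difference turned to -3.4 kb.

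The GFI1 genes differed from each other in both extent and constancy. GFI1 (chromosome 1, 92473043 to 92486925) lay in a single peak of 14.8 kb (92475001 to 92489800) with the same first and last base in both lists and with the ceiling score in both. All 3 of its listed starts were inside. Of the 16990 one-to-one pairs of overlapping peaks in the lists, 149 (0.877%) had both edges equal on the 200 bp grid of the lists. GFI1B (chromosome 9, 132945531 to 132993434) had 5 peaks in each list, which covered 37.4 kb (42.5% of the window) in wild-type cells and 28.6 kb (32.5%) in knockdown cells. Its second start (132978694) lay in peaks of 8.4 and 8.2 kb. Its first start (132945531) lay in peaks of 4.6 and 3.6 kb that also held a start of TSC1, a growth regulator gene on the opposite strand 0.915 kb away. The wild-type peak there scored 2.79, with 98.2% of its list higher, and the knockdown peak 16.5, with 45.7% higher. GFI1B is also the member whose starts were in peaks with few CG dinucleotides, 6 and 9. The 3 peaks downstream of the second start measured 4.4, 9.2 and 10.8 kb in wild-type cells and 1.8, 4.0 and 11 kb in knockdown cells, and the annotated 3′ end lay inside a peak only in wild-type cells, 1.37 kb from the nearest knockdown peak.

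IKZF1 (chromosome 7, 50303455 to 50405101) had 16.4 kb in peaks in wild-type cells and 11.8 kb in knockdown cells, or 11.6% and 8.33% of its window. The first start (50304716) lay in a peak of 6.2 kb in wild-type cells and 4.4 kb in knockdown cells. The second start (50308700) was 0.7 kb past the edge of that peak in wild-type cells, while in knockdown cells it lay in a separate peak of 3.0 kb (50307401 to 50310400). The third start (50319048) was 2.05 kb from a peak in wild-type cells and 8.65 kb in knockdown cells. The 300 bases around the 3 starts held 35, 3 and 0 CG dinucleotides. Wild-type peaks of 2.2 and 2.8 kb in the gene touched no knockdown peak. The direction at IKZF1 depended on the peaks used: the difference of -4.6 kb became 1.2 kb in the upper 50% by score and 5.6 kb with lists of equal covered length.

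**Figure D2:**
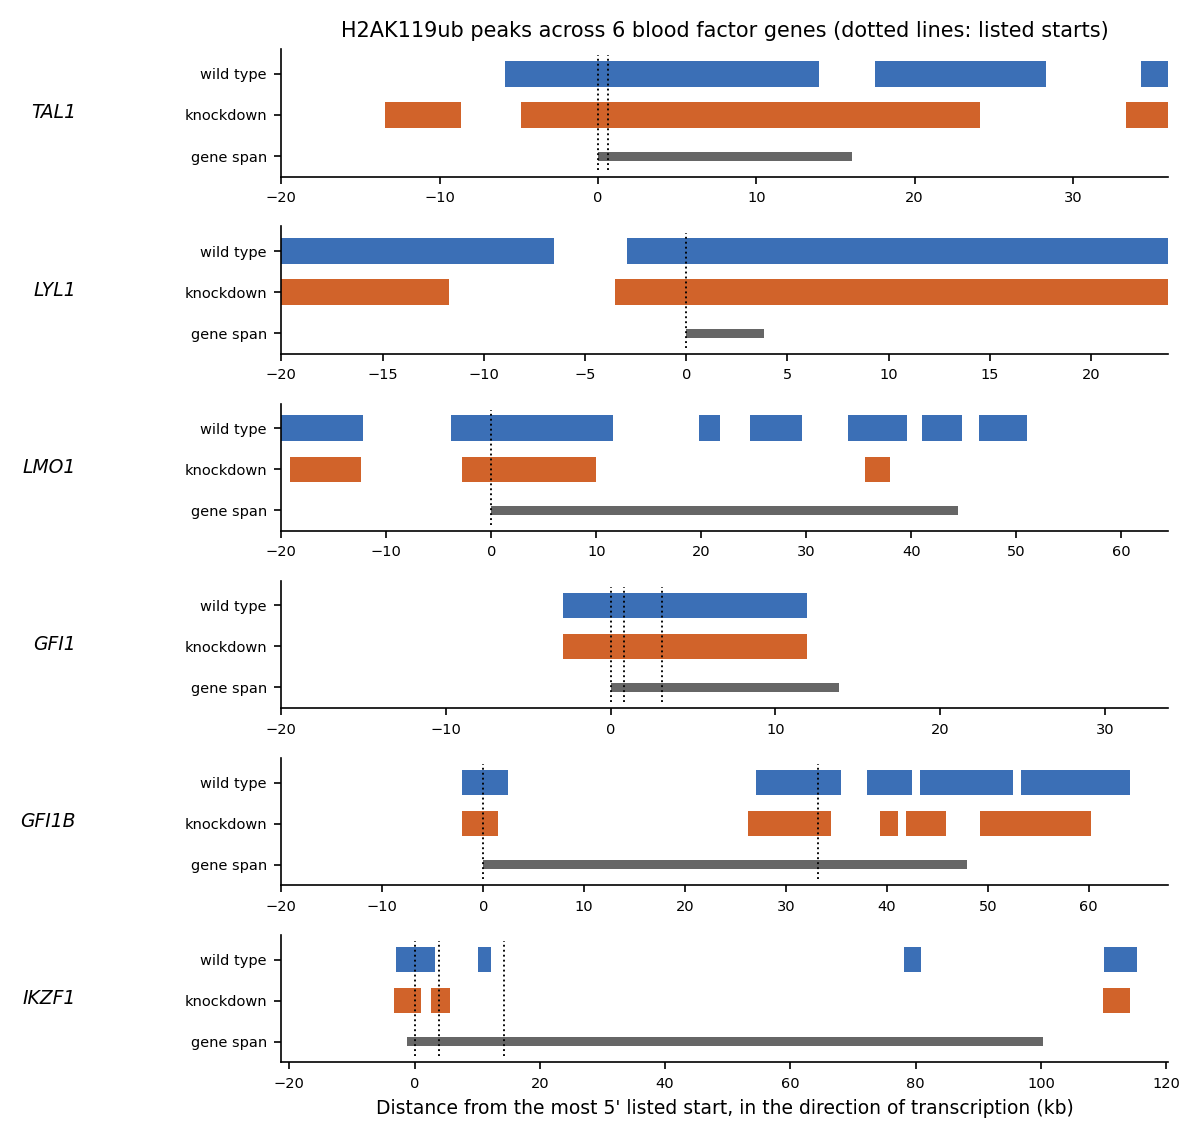
H2AK119ub peaks (wild type blue, knockdown orange) across TAL1, LYL1, LMO1, GFI1, GFI1B and IKZF1, each in its window and cut at the window edge, against the distance in kb from the most 5′ listed start, with the gene span in grey and listed starts as dotted lines. GFI1 has an identical peak of 14.8 kb in both lists, and LMO1 has 7 wild-type peaks against 3 in knockdown cells.

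Taking the 10 genes as a group, 6 had less covered length in knockdown cells, 3 had more and 1 was equal. Their windows summed to 278.7 kb in wild-type cells and 229.7 kb in knockdown cells, a difference of -17.6%, beside -14.0% for the sum over all protein-coding genes. That sum counts bases in overlapping windows of neighbouring genes more than once, while the members' windows do not overlap each other. Without LMO1 the difference was -11.4%. A gene was counted as shorter or longer when the covered lengths differed at least 1.5-fold and by at least 1 kb. LMO1 was shorter and no member was longer. Among 16431 protein-coding genes with at least 1 kb in either list, 24.5% were shorter and 13.3% longer by that rule. Counts of 1 and 0 among 10 genes are too small to be told apart from these shares. In the upper 50% of peaks by score they were 3 and 1. The median log2 ratio of knockdown to wild type was -0.25 over the 10 genes and -0.18 over the 14999 genes with at least 1 kb in both lists.

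**Figure D3:**
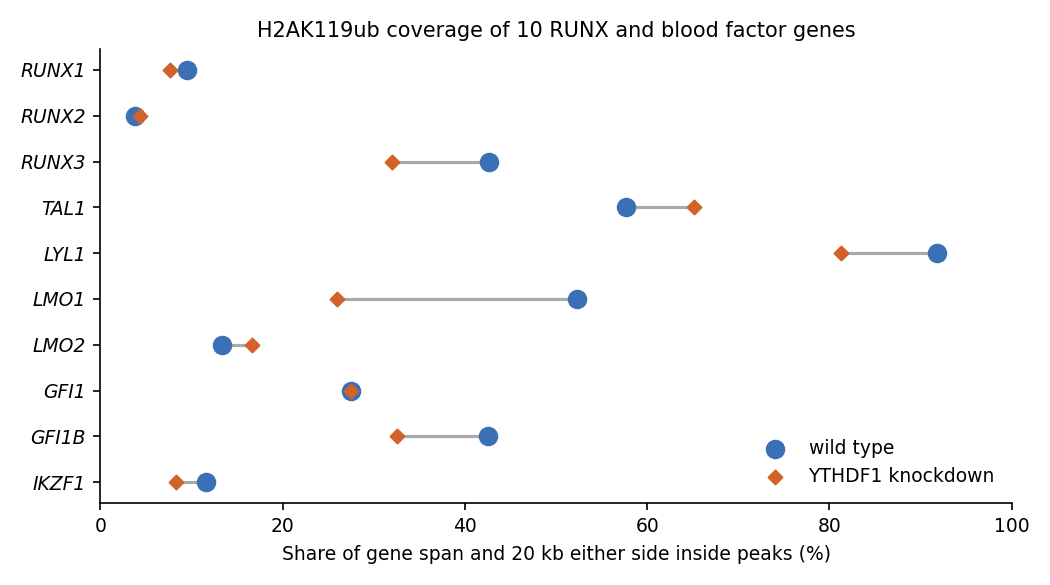
Share of each gene's window (gene span and 20 kb either side) inside H2AK119ub peaks, in percent, in wild-type cells (blue circles) and the YTHDF1 knockdown (orange diamonds), joined by a grey line. Each symbol is 1 library. LMO1 goes from 52.3% to 26.0%, while GFI1 is at 27.5% in both.

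All 9 members with listed starts had at least 1 start in a peak in wild-type cells and in knockdown cells, beside 64.1% and 64.6% of the 15812 protein-coding genes with a listed start. Peaks at the score ceiling held a start of 5 of the 9 in wild-type cells (RUNX1, RUNX3, TAL1, LYL1 and GFI1), beside 6.91% of all genes, the LYL1 peak being the one shared with NFIX, and of 4 of the 9 in knockdown cells (without RUNX1, whose peak scored 229), beside 4.17%. This was not particular to the members: of the 26 other blood transcription factors with listed starts, 9 in wild-type and 8 in knockdown cells had a start in such a peak, and of the 15 partners and cofactors 3 and 2. The median share of the window inside peaks was 35% in wild-type cells and 26.8% in knockdown cells for the 10 genes, and 9.67% and 8.77% for all protein-coding genes. In the other groups described below it ran from 15.1% to 38.9% in wild-type cells and from 11.7% to 35.7% in knockdown cells. The highest value in both lists was that of the 4 pluripotency genes. Several starts were listed for 6 of the 9 members, beside 4036 of the 15812 genes, and more starts make at least 1 in a peak easier to reach. Gene length, CG content, the number of listed starts and the neighbours named above differ between these genes and the rest. Their part was not tested.

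Peaks over listed member starts all touched a peak of the other list, and the peaks that touched none held no listed member start. The members' windows touched 36 wild-type and 31 knockdown peaks. All 10 wild-type and all 11 knockdown peaks that held a listed member start touched a peak of the other list. Of the other peaks, 16 of 26 in wild-type cells (61.5%) and 17 of 20 in knockdown cells (85.0%) did. All peaks of LMO2 count among these others because no start is listed for it. A touch can be slight: the knockdown peak over the second IKZF1 start met only the wild-type peak over the first. With at least 50% of both peaks in common, 9 of 10 and 9 of 11 peaks over starts were shared, and 8 of 26 and 8 of 20 others. Peaks over starts were also wider, with medians of 13.1 and 10.6 kb against 4.7 and 4.4 kb for the other peaks. The part of width was not tested. Some of these other peaks cover starts of neighbouring genes. When peaks over any listed protein-coding start were set apart, 13 of 13 wild-type and 14 of 14 knockdown peaks with a start were shared, and 13 of 23 (56.5%) and 14 of 17 (82.4%) without. In the whole lists the shares were 93.3% and 92.3% with a start and 62.9% and 67.3% without. The 10 unshared wild-type peaks, 4 of them at LMO1, were 2.0 to 5.0 kb wide, and the 3 unshared knockdown peaks, at RUNX3, TAL1 and LMO2, were 1.8 to 5.8 kb wide.

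**Figure D4:**
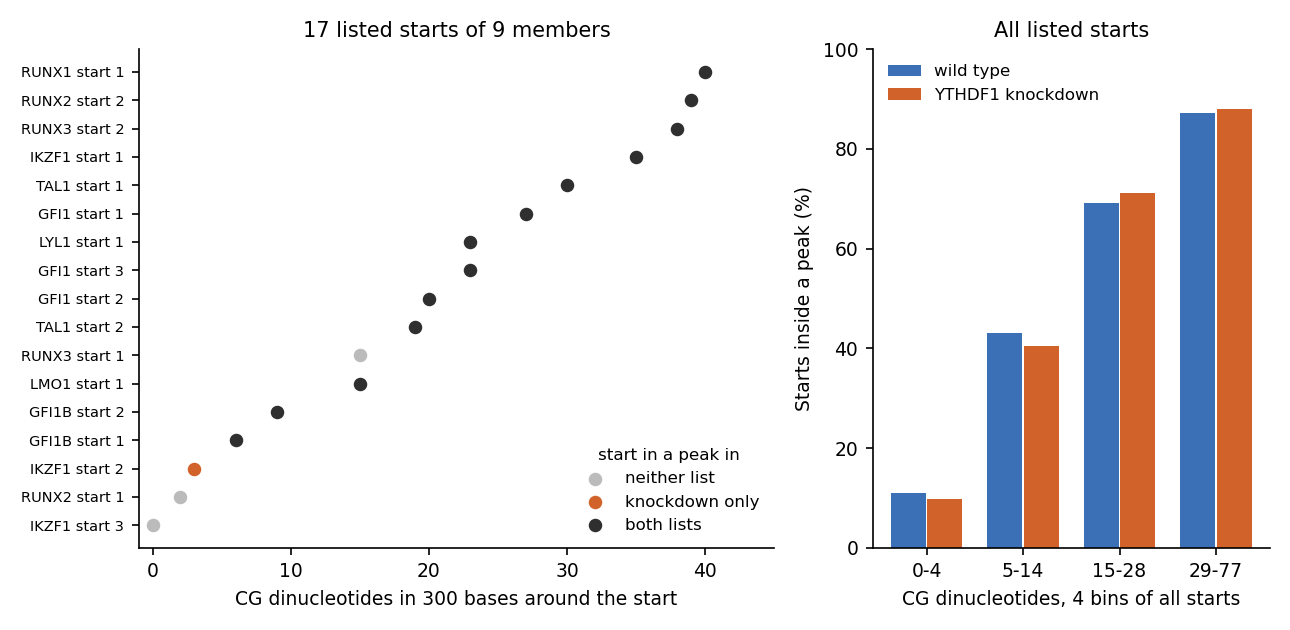
Left, number of CG dinucleotides in the 300 bases around each of the 17 listed starts of 9 members, coloured by whether the start lies in a peak in both lists, in knockdown cells alone or in neither. Right, percent of all listed starts inside a peak, for 4 bins of the CG number, in wild-type cells (blue) and the knockdown (orange). The 13 member starts in peaks of both lists held 6 to 40 CG dinucleotides, with a median of 23, and the 3 in neither held 0, 2 and 15.

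Other genes of the same pathway were measured in the same windows. The 16 partners and cofactors of RUNX, TAL1 and GFI1 proteins summed to 580.1 kb in wild-type cells and 499.8 kb in knockdown cells (-13.8%), with 13 lower, 3 higher, 4 shorter by the 1.5-fold rule and none longer. By the mean of both lists the longest covered lengths were those of ZFPM1, a cofactor of GATA factors, with 99.9 against 96.7 kb, and TLE2, a Groucho corepressor, with 77.6 against 60.8 kb. SSBP3, which binds LDB1, had the largest decrease, from 80.0 to 53.2 kb, and CBFA2T3, a corepressor of the TAL1 complex, the largest increase, from 59.9 to 67.95 kb. The 9 relatives of the members in the same families summed to 99.3 and 81.5 kb (-17.9%), with 2 shorter and 1 longer. IKZF3, which encodes Aiolos, had 27.9 against 24.5 kb, IKZF5 13.6 against 11.2 kb, IKZF4 15.2 against 8.2 kb and NHLH1, a neuronal relative of TAL1, 4.2 against 7.0 kb.

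The 30 other transcription factors of blood cells were, like the members, mostly covered at their starts. They summed to 876.5 kb in wild-type cells and 792.2 kb in knockdown cells (-9.62%), with 21 lower, 7 higher and 2 equal, and with 1 shorter and none longer. The median covered share was 26.6% and 26.8% of the window, and 24 of 26 with listed starts had a start in a peak in both lists. PAX5, a B cell factor, had 91.0 against 66.8 kb, the largest decrease of this group, and FLI1, an ETS factor, had 82.2 against 74.2 kb. These were the longest covered lengths by the mean of both lists. ZBTB16, a zinc finger factor, had the largest increase, from 30.8 to 35.6 kb. The 22 surface and effector genes of blood cells had a median covered share of 15.1% and 20.7% of the window. Their sums were 316.4 and 288.1 kb (-8.94%), with 3 shorter and 3 longer, and 3 had no peak in the window in either list. A start lay in peaks of both lists in 5 of the 12 with listed starts, and none lay in a peak at the score ceiling. ITGA2B, a platelet integrin, had 39.6 against 32.0 kb, ELANE, neutrophil elastase, 38.3 against 34.4 kb, EPOR, the erythropoietin receptor, 38.4 against 26.9 kb, and CSF3R, a granulocyte growth factor receptor, 9.0 against 22.4 kb. Of the 4 pluripotency genes, POU5F1 had 21.5 against 18 kb and SOX2 35.6 against 32.8 kb, while LIN28A had 18.5 against 19.2 kb and NANOG, with no wild-type peak in its window, had 2.2 kb in knockdown cells. These lengths say nothing about their expression.

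**Figure D5:**
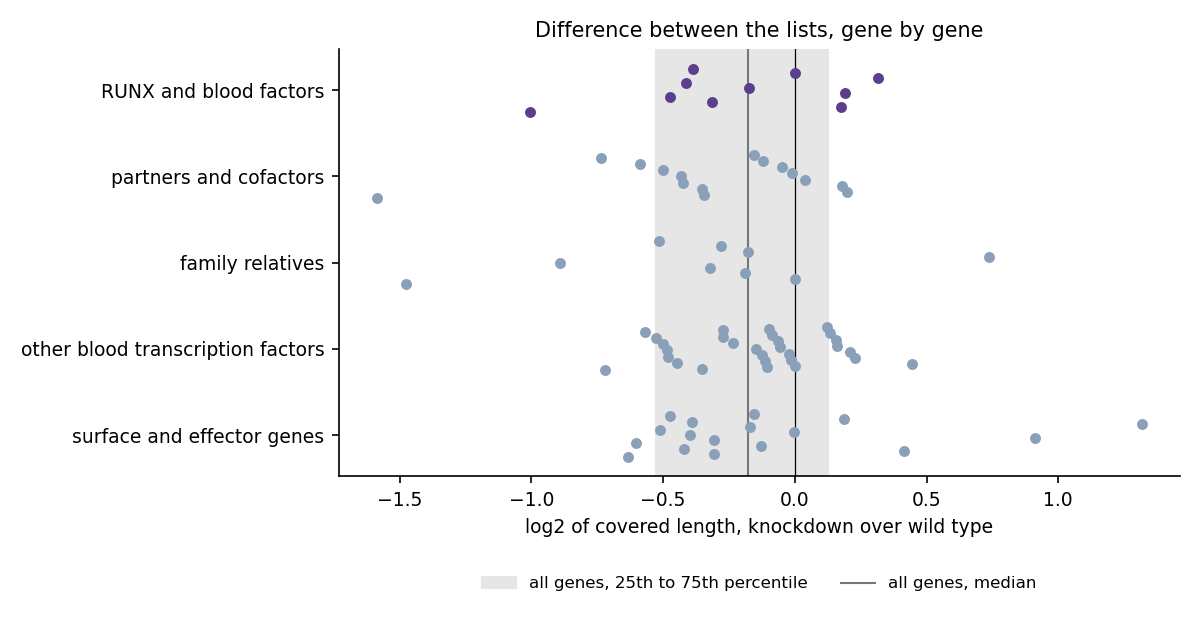
log2 ratio of covered length, knockdown over wild type, for each gene with peaks in both lists, by group of genes, beside the median (grey line, -0.18) and the range from the 25th to the 75th percentile (grey band, -0.53 to 0.13) of 15063 protein-coding genes. LMO1 is the member farthest to the left at -1.01, and 6 of the 10 members lie inside the band.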

How the data were processed

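The study deposited 1 peak list for each of the 2 H2AK119ub libraries. Per the submitters' processing notes, the build was hg38, and the tools, named without roles, were SICER 1.1, MACS2 2.1.0, Bowtie2 2.2.5, Trimmomatic 0.35, Picard and SAMtools 1.3.1. The peak caller and the use of the input are not given in the sources used here. Each line holds a position and a deposited score made by the authors, of unstated unit, used only to rank or filter peaks within a list. The lists hold no read counts, so depth is unknown and no interval is given. Starts and ends lie on a 200 bp grid, and ends were read as inclusive.

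Chromosomes 1 to 22 and X were kept, with 32791 of 32798 in the wild type (195 Mb, median width 4.4 kb) and 34390 of 34393 in the knockdown (168 Mb, 3.6 kb). Gene spans came from a RefSeq table of GRCh38.p14 after 153 genes on scaffolds were left out. Strand and starts came from a RefSeq promoter table. Covered length is the number of bases in peaks in the gene span and 20 kb either side. Peaks of the lists overlapping by 1 bp or more were counted as shared. All members are described. From the other lists, the 2 longest genes and the genes that fell or rose most (by 1 kb or more) are named. The members and lists were chosen with earlier results of these data known. The overlap routine was checked on made-up intervals. Python 3.11.15 with pandas 2.3.3 was used.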

Additional observations from a re-analysis of the deposited data

How the results depend on the processing

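The summed covered length of the 10 genes was lower in the knockdown under all 8 alternatives of window and peaks. The difference was -9.81% with the wild-type list shortened to equal covered length, where all protein-coding genes had -4.22%. Leaving out single members, chosen after the data were seen, gave -11.4% without LMO1. LMO1 was shorter under every alternative of window, peaks and fold. The number of members shorter was 2 over the gene span alone and with 5 kb either side (IKZF1 added), 3 in the upper 50% by score (RUNX1 and LMO2 added) and 2 with equal numbers of top-scored peaks (RUNX1 added). The number longer was 1 in the upper 50% (RUNX2) and 1 with equal covered length (IKZF1). Among all protein-coding genes, those 4 settings gave 4030, 4054, 3830 and 4347 shorter in this order, beside 4022 in the main setting. The all-gene numbers longer were 2115 in the upper 50% and 3541 with equal covered length, beside 2189. Counts this small in 10 genes say little about the members. At RUNX2 the upper 50% left out the wild-type peak over the SUPT3H starts (score 9.81) and kept the knockdown peak there (score 19.6). Each was 3.6 kb wide, and the proximal RUNX2 peaks stayed at 6.4 and 7.8 kb. When the overlap had to be at least 50% of both peaks, the members' windows had 17 shared peaks of 36 from wild-type cells, against 26, and 17 of 31 from knockdown cells, against 28. RUNX1, RUNX2, RUNX3, LMO1 and GFI1B kept their direction under all 8 alternatives. Their differences were -11 to -3, 1.4 to 5, -14.6 to -3.8, -30.6 to -13.8 and -15.2 to -4.2 kb in this order. For RUNX1 and RUNX2 some alternatives could not change the value. All their peaks lay inside the gene and were at least 2 kb wide. The smaller windows and the 2 kb minimum width therefore returned -5.6 and 1.4 kb again, and the 50 kb window gave these values too. The cause of these changes was not tested. No paired analysis was possible because each group had 1 library. Unknown depth limits every peak found in a single list.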
